A study of Mus musculus with 16 samples.

Results

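Klf2 and Klf4 are Krüppel-like factors, zinc finger proteins that bind GC-rich and CACCC sequences in promoters and raise or lower transcription there. They were read with 4 of the 46120 probes of the array, namely every probe whose identifier holds the zero-padded NCBI gene number of Klf2 (1 probe) or of Klf4 (3 probes). Both genes were chosen because their formoterol differences at 1 h and 4 h were already known, so these differences are given as a description and without a test. Reading a gene from the number in a probe identifier is an inference, because no gene names accompany the probes in the files.

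RNA was prepared from the tibialis anterior, a fast muscle of the lower leg, of 16 wild-type male C57BL/10 ScSn mice aged 6 to 7 weeks. Each mouse received 1 intraperitoneal injection, either formoterol at 100 µg/kg (an agonist of the beta-adrenergic receptor of skeletal muscle, which raises cAMP) or the same 0.2 mL of saline, and the muscle was taken 1 h or 4 h later. Each combination of agent and time had 4 mice, which makes 4 groups, with 1 array per mouse on 3 slides. A single dose, a single sex and a single muscle were examined. The muscle was used whole, so fewer cells of a type and less RNA per cell cannot be told apart in any value below.

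Klf2 is best known from endothelium, where blood flow raises it and where it holds down inflammatory genes, and from resting lymphocytes. Klf4 is known from epithelial barriers, from smooth muscle cells that change state, and as a factor that helps to return cells to pluripotency, and in many cells it arrests growth through the kinase inhibitor Cdkn1a. Both behave as early response genes in many cell types, and in cultured myoblasts both act in cell fusion below the kinase ERK5, which works in part through MEF2 factors. cAMP itself signals to transcription largely through protein kinase A and CREB, which binds the motif TGACGTCA or its part TGACG.

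The 250 bases that precede the annotated start of each gene are shown because both genes responded within 1 h, so that the reader can see which letters lie there. They come from RefSeq on build GRCm38.p6, in which Klf2 lies on the forward strand at chr8:72318812-72319061 and Klf4 on the reverse strand at chr4:55532476-55532725, both genes matching an entry. Capitals mark TGACG on either strand and the MEF2 motif.
Klf2: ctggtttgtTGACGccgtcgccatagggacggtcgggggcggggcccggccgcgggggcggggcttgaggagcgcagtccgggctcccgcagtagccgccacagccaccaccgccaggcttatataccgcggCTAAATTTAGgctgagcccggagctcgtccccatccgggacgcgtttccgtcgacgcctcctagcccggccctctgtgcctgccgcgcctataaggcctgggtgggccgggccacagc
Klf4: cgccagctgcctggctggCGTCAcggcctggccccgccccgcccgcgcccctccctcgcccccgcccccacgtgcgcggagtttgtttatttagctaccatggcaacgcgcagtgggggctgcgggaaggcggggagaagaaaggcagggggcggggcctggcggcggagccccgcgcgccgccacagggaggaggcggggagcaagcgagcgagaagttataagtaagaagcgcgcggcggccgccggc

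Motifs were searched on both strands of 300 bases, the 250 bases shown and the 50 that follow. TGACG occurred once in each gene, ending 237 bases before the start of Klf2 and, on the opposite strand, 228 bases before the start of Klf4. The same motif was found in 20.8% of the 32851 mouse promoters of this length. The full TGACGTCA, held by 1.79% of promoters, was in neither window. The MEF2 motif was found once in Klf2, ending 109 bases before the start, was not in the Klf4 window, and occurred in 1.86% of all promoters. GGGCGG, bound by SP and Krüppel-like factors, occurred 2 times in Klf2 and 4 times in Klf4 and in 35.7% of promoters. CACCC was found once in Klf2 and not in Klf4, against 57.5% of promoters, and overlapped none of the other matches. The CArG motif of serum response factor (1.63% of promoters) and CCAAT (37.4%) were in neither window. Both windows were rich in G and C, at 69.3% for Klf2 and 74.3% for Klf4, against a median of 52.7%. These matches are letters in a sequence, and no binding was measured.

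All intensities below are average bead intensities in arbitrary units, scaled so that each array has the same median over the 7596 probes that were kept. A probe was kept when its detection score, which runs from 0 to 1 and ranks the probe against negative control beads, was 1 on at least 4 of the 16 arrays. Klf2 (probe scl016598.3_26-S) had a score of 1 on all 16 arrays. Klf4 probe A (scl0016600.2_249-S) reached 1 on 13 arrays and probe B (scl0016600.2_155-S) on 8, whereas probe C (scl016600.7_29-S) reached it on 0 and was not kept. The position of each probe on its transcript is not given in the sources used here.

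In saline-treated muscle at 1 h, Klf2 gave scaled intensities of 494.9, 580.3, 454.3 and 413.6 in replicates 1 to 4. One hour after formoterol the 4 mice gave 1046.2, 1118.0, 1168.4 and 1391.9. Every formoterol-treated mouse lay above every saline-treated mouse. The group means were 485.8 ± 71.2 and 1181.1 ± 149.2 (SD, n = 4), a log2 difference of 1.28 (SE 0.12), or 2.44-fold. Among the 7596 kept probes this was the 24th largest rise at 1 h, and 4.42% of those probes were without overlap in the same direction.

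At 4 h the Klf2 difference was small. The saline-treated mice gave 459.5, 649.3, 658.2 and 643.4, and the formoterol-treated mice 585.1, 708.6, 612.8 and 673.5. The groups overlapped, and the saline values included 1 low mouse, replicate 1. The means were 602.6 ± 95.6 and 645.0 ± 56.2 (SD, n = 4), with a log2 difference of 0.11 (SE 0.12) and a 95% interval from -0.15 to 0.37. Without saline replicate 1 the difference was -0.02, so its direction rested on that mouse, and with arrays weighted by their quality it was 0.35.

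Klf2 also differed between the saline groups, by a log2 of 0.31 (SE 0.12) from 1 h to 4 h, and these groups overlapped. With array weights this difference was 0.08. This comparison shares its samples with the formoterol differences and was not tested. Between the formoterol groups Klf2 fell by 0.87 (SE 0.12) on the log2 scale from 1 h to 4 h, and here the groups did not overlap. Of all kept probes, 5.9% were lower at 4 h than at 1 h of formoterol without overlap. The response at 4 h minus the response at 1 h was -1.18 (SE 0.18) in log2, the 13th lowest of 7596.

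Klf4 probe A had a larger difference than Klf2 at both times. The saline-treated mice at 1 h gave 348.2, 328.9, 351.0 and 351.4, close together and near the detection limit, with a score below 1 in replicate 2. After 1 h of formoterol the values were 1694.7, 1279.5, 1589.8 and 1022.2. Every formoterol-treated mouse was far above every saline-treated one, and the formoterol-treated mice were also spread more widely. The means were 344.9 ± 10.7 and 1396.6 ± 305.5 (SD, n = 4), a log2 difference of 1.99 (SE 0.15), or 3.97-fold. It was the 5th largest rise of the 7596 probes.

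Unlike Klf2, Klf4 probe A was still clearly above saline at 4 h. Saline-treated mice gave 288.6, 473.2, 344.8 and 323.0, with scores below 1 in replicates 1 and 4, and formoterol-treated mice gave 775.2, 918.6, 704.1 and 727.1. The groups did not overlap, as was the case in this direction for 10.5% of all kept probes. The means were 357.4 ± 80.6 and 781.2 ± 96.2 (SD, n = 4), and the log2 difference was 1.15 (SE 0.15), or 2.21-fold. Saline at 4 h minus saline at 1 h was 0.03 (SE 0.15) in log2, and formoterol at 4 h minus formoterol at 1 h was -0.82 (SE 0.15), without overlap. The response at 4 h minus that at 1 h was -0.84 (SE 0.21).

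**Figure D1:**
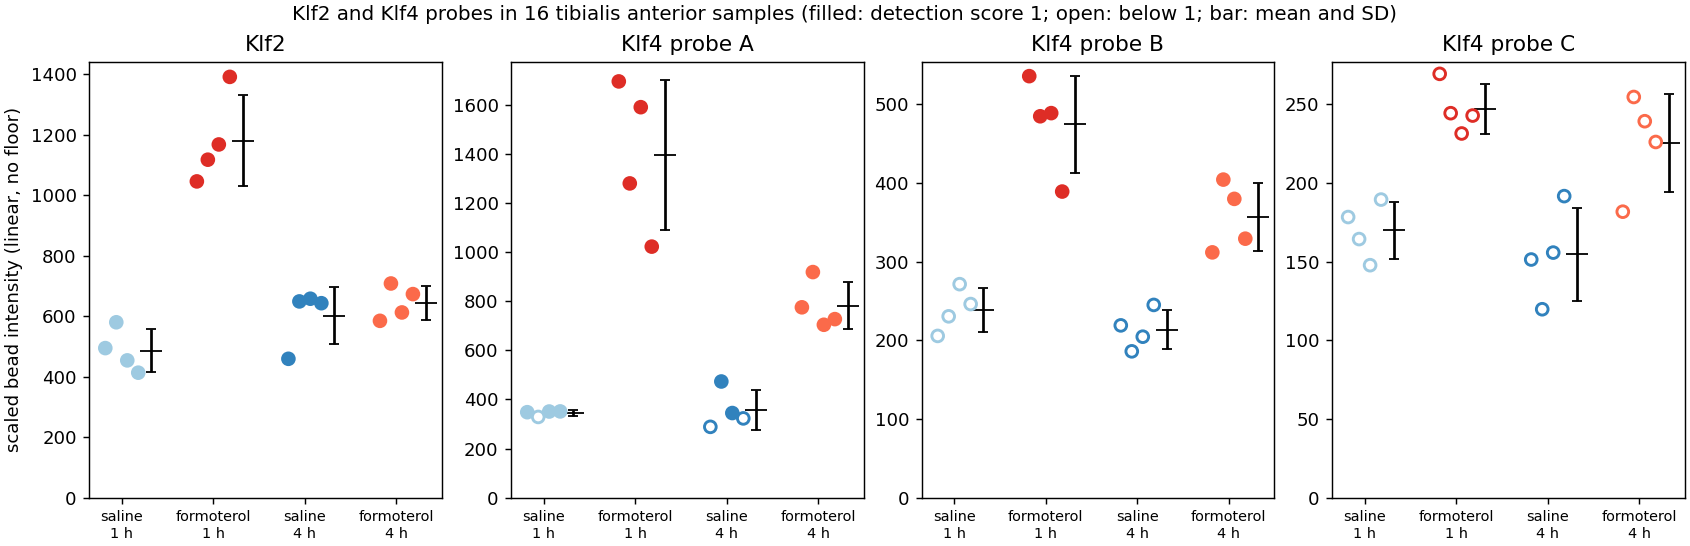
Scaled bead intensity (linear axis from 0, arbitrary units, no floor) of the Klf2 probe and of the 3 Klf4 probes in each mouse of the 4 groups, filled where the detection score was 1, with the mean and SD beside each group. Klf2 was separated from saline at 1 h and overlapped at 4 h, Klf4 probes A and B were separated at both times, and probe C never reached a score of 1. Probe B was kept only through the formoterol groups, in which it was high.

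Klf4 probe B read the same gene at a dimmer level. Its detection score was 1 in all 8 formoterol-treated mice and in 0 of the 8 saline-treated mice. At 1 h the saline values were 205.7, 230.6, 271.5 and 246.2 and the formoterol values 535.9, 484.9, 488.9 and 389.2. At 4 h they were 219.1, 186.1, 204.7 and 245.1 with saline and 311.9, 404.4, 379.9 and 329.3 with formoterol. The groups did not overlap at either time, beside 4.42% of kept probes at 1 h and 10.5% at 4 h in this direction. Probe B was kept only through the formoterol groups, in which it was high, so the filter favoured this separation.

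Because probe B was not detected in any saline group, its size has only a bound. Taking for each saline array the higher of its own value and the lowest intensity at a detection score of 1 among kept probes, formoterol was at least 1.43-fold higher at 1 h and at least 1.19-fold higher at 4 h. With values under a floor of 257.5 raised to it, as was done for all probes before fitting, the log2 difference was 0.85 (SE 0.09) at 1 h and 0.46 (SE 0.09) at 4 h. The floor held 7 of the 8 saline values of this probe. Without a floor the log2 differences were 0.99 (SE 0.11) and 0.74 (SE 0.11), so its decline from 1 h to 4 h was -0.39 (SE 0.13) with the floor and -0.25 (SE 0.16) without it.

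Klf4 probe C stayed near background and is shown without a floor, which would have raised 15 of its 16 values. Saline-treated mice gave 147.8 to 189.5 at 1 h and 119.8 to 191.7 at 4 h. Formoterol-treated mice gave 231.5 to 269.4 at 1 h and 181.8 to 254.7 at 4 h, and only the 4 h groups overlapped. Its detection scores were separated at both times. They ran from 0.009 to 0.530 with saline and from 0.678 to 0.964 with formoterol at 1 h, and from 0.030 to 0.101 and from 0.620 to 0.814 at 4 h. By the study's filter this probe was not detected, which does not show that its transcript was absent.

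The sizes of the response of the 3 Klf4 probes cannot be ranked, because probe B was not detected in saline and probe C on no array.

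Slides held different mice, and the direction was the same on each at 1 h for every probe and at 4 h for the Klf4 probes. At 4 h the Klf2 values were near 0 on each slide, so no direction is read from them. At 1 h Klf2 differed by a log2 of 1.01 on slide 2 and 1.56 on slide 3, each with 2 mice per group. Klf4 probe A went the other way in size, with 2.12 on slide 2 and 1.86 on slide 3, as did probe B with 1.23 and 0.75 without a floor. At 4 h slide 1, with 3 mice per group, gave 0.12 for Klf2 and 1.14 for Klf4 probe A. The single pair of mice on slide 2 gave 0.07 and 1.17. All mice of slide 1 were taken at 4 h and all of slide 3 at 1 h, so that both times met on slide 2 only. There, with 1 mouse per group at 4 h, the response at 4 h minus that at 1 h was -0.95 in log2 for Klf2.

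**Figure D2:**
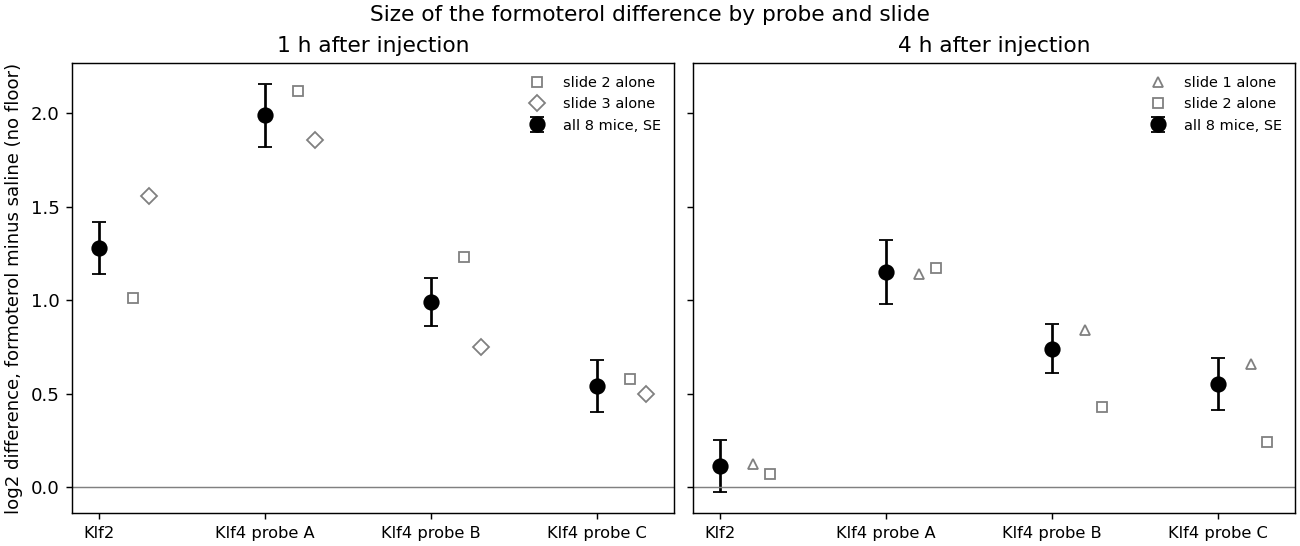
Formoterol minus saline in log2 without a floor for each of the 4 probes at 1 h and 4 h, as the difference over all 8 mice of a time with its SE (black) and within each slide (grey). At 1 h all 4 probes were above 0 on both slides, whereas at 4 h Klf2 was near 0 (0.11) and Klf4 probe A stayed at 1.15.

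Klf2 and Klf4 showed no common order of mice over all groups. One hour after formoterol, replicate 4 had the highest Klf2 (1391.9) and the lowest Klf4 probe A (1022.2), whereas replicate 1 had the lowest Klf2 (1046.2) and the highest Klf4 probe A (1694.7). At 4 h, by contrast, formoterol replicate 2 was highest for both (708.6 and 918.6) and saline replicate 1 was lowest for both (459.5 and 288.6). Deviations from the group mean, which the choice of the genes did not use, were compared over the 16 arrays. For Klf2 and Klf4 probe A, Pearson's r was 0.01 (2-sided permutation within groups, p = 0.982, adjusted p = 0.982 over the 3 pairs of probes) and Spearman's rho was -0.09 (permutation p = 0.753, adjusted p = 0.753). Without the 2 arrays farthest from the median of Klf2, r was -0.22, and leaving out 1 array at a time moved it between -0.34 and 0.34. Within slides the sign differed. For deviations from the mean of a group on its slide, r was 0.77 over the 6 arrays of slide 1, all of 4 h, and -0.56 and -0.88 over 4 arrays of 1 h each on slides 2 and 3, too few for a test. Each of these 1 h groups held 2 mice on its slide, whose deviations are equal and opposite, so the size of r there carries little information. The 4 h mice of slide 2 were alone in their groups and gave no deviation. With slide and group means removed r was 0.05 (adjusted permutation p = 0.894).

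For Klf2 and Klf4 probe B, r was -0.23 (permutation p = 0.362, adjusted p = 0.543) and rho was -0.20 (permutation p = 0.444, adjusted p = 0.667). Without the 2 arrays farthest from the Klf2 median, r was -0.29, and it was 0.37 within slide 1, -0.38 within slide 2 and -0.75 within slide 3. The 2 kept probes of Klf4 gave r = 0.59 (permutation p = 0.0465, adjusted p = 0.14) and rho = 0.37 (permutation p = 0.208, adjusted p = 0.624), which did not pass the correction. It passed after quantile normalization (r = 0.66, adjusted permutation p = 0.0106) and with normexp and quantile normalization (r = 0.61, adjusted permutation p = 0.0157). That r was 0.52 without the 2 arrays farthest from the median of probe A, 0.18 within slide 1, 0.98 and 0.97 over 4 arrays each of slides 2 and 3, and 0.22 without a floor (adjusted permutation p = 0.745). In the saline-treated mice probe B lay at the floor on 7 arrays, so that these mice added little to that r. On slides 2 and 3 each group held 2 mice with equal and opposite deviations, so for every pair of probes the size of r there says little. The 0.98 of slide 2 rested on its formoterol-treated mice alone, because both saline values of probe B lay at the floor.

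**Figure D3:**
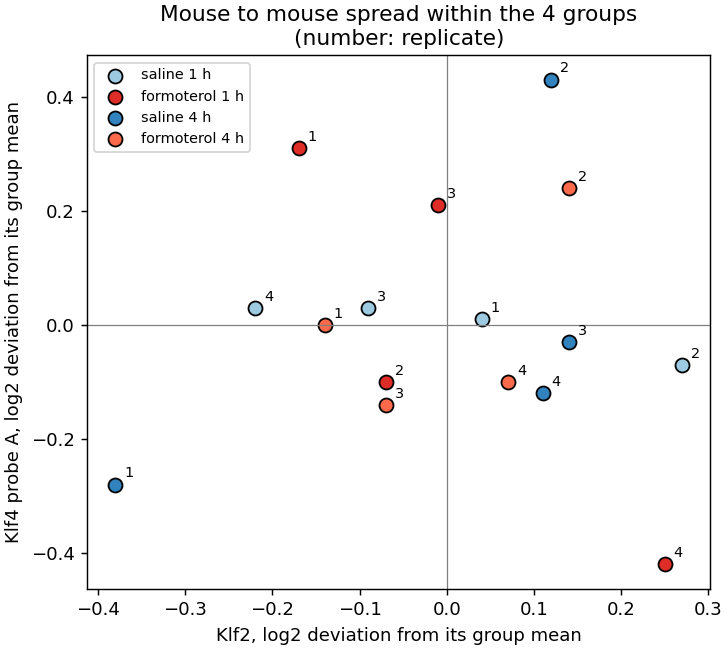
Log2 deviation of each mouse from its group mean for Klf2 (x axis) and Klf4 probe A (y axis), coloured by group and numbered by replicate. The 16 mice formed no common line (Pearson's r 0.01), and formoterol replicate 4 at 1 h lies at the lower right with Klf2 0.25 above and Klf4 0.42 below its group.

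Klf2 and Klf4 belong to a family of Krüppel-like and SP factors that bind like sequences. Of the other 25 family genes looked for, 12 were named on the array and 3 were kept, Klf3, Klf6 and Klf7. At 1 h 0 of these 3 had an adjusted p under 0.05 in either direction, beside 2.78% of all kept probes (limma, adjusted over 7596 probes), while 2 of 3 had an unadjusted p under 0.05 and the methods' t-test called 0. At 4 h 1 of 3, Klf6, was higher, beside 8.81% of all kept probes, while 3 of 3 had an unadjusted p under 0.05 and the methods' t-test called 0. Their median log2 difference was 0.33 at 1 h and 0.29 at 4 h, against 0.00 and 0.02 over all kept probes.

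Klf6, a growth-restraining factor induced by tissue injury, gave 973.3, 1045.4, 1310.0 and 1153.7 with saline at 4 h and 1220.0, 1514.9, 1500.8 and 1491.0 with formoterol. The groups overlapped, and the log2 difference was 0.36 (SE 0.12, limma adjusted p = 0.047). The call was lost when any of 9 single arrays was left out, namely saline replicate 4 and formoterol replicates 2, 3 and 4 at 1 h, and saline replicates 1 and 2 and formoterol replicates 2, 3 and 4 at 4 h, with an adjusted p of up to 0.141. At 1 h the Klf6 difference was 0.24 (SE 0.12, adjusted p = 0.383).

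Klf7, known for its role in neurons and in fat cell precursors, gave 499.9, 476.2, 503.0 and 499.4 with saline at 1 h and 690.6, 608.5, 573.5 and 619.1 with formoterol. These groups did not overlap, but the log2 difference of 0.33 (SE 0.10) had an adjusted p of 0.0903. At 4 h it was 0.27 (SE 0.10, adjusted p = 0.074). Leaving out 1 array brought a call in each case, saline replicate 2 of 4 h for the 1 h difference (adjusted p = 0.016) and saline replicate 4 of 4 h for the 4 h difference (adjusted p = 0.0233).

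Klf3, a factor that mostly represses and recruits the corepressor CtBP, ranged from 550.5 to 774.5 with saline and from 760.9 to 954.4 with formoterol at 1 h. The groups overlapped, and the log2 difference was 0.35 (SE 0.11, adjusted p = 0.135). At 4 h it ranged from 491.9 to 668.3 and from 670.2 to 774.4, with a difference of 0.29 (SE 0.11, adjusted p = 0.0934). All 3 genes thus had values above 0 at both times that were several times smaller than that of Klf4 probe A. At 4 h all 3 were larger than the 0.11 of Klf2, which was 0.35 with array weights.

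**Figure D4:**
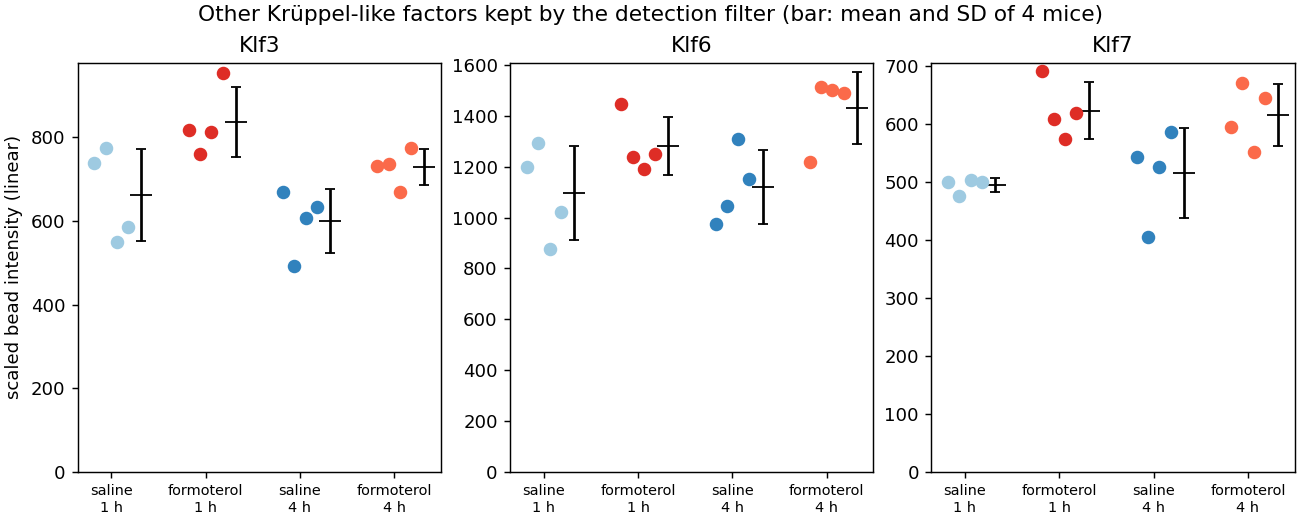
Scaled bead intensity (linear axis from 0, arbitrary units) of Klf3, Klf6 and Klf7 in each mouse of the 4 groups, with the mean and SD of 4 mice. The formoterol-treated groups lay slightly higher at both times, with log2 differences of 0.24 to 0.36, and 1 of the 6 differences, Klf6 at 4 h, had an adjusted p under 0.05.

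The other 9 family genes named on the array (Klf5, Klf8, Klf11, Klf12, Klf17, Sp1, Sp2, Sp3 and Sp6) had 13 probes, none of them kept. Of these, 12 had a score of 1 on no array and 1 had it on a single array, so their expression was not detectable at this sensitivity. The remaining family genes have no probe that could be named here.

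The genes that act above Klf2 and Klf4 were covered thinly. Of 12 genes of the MEKK, MEK5, ERK5 and MEF2 path with its class IIa histone deacetylases, 1 was kept, Mef2c, with a log2 difference of 0.06 (SE 0.10, limma adjusted p = 0.874) at 1 h and -0.18 (SE 0.10, adjusted p = 0.211) at 4 h. The other genes of this path either had no probe that could be named or were not kept. Of 16 genes of protein kinase A, CREB and their coactivators, 2 were kept, the regulatory subunit Prkar2a and the acetyltransferase Kat2b, with log2 differences at 1 h of -0.02 (SE 0.20) and 0.04 (SE 0.10), and at 4 h of -0.37 (SE 0.20) and 0.07 (SE 0.10). Neither was called at either time by limma or the methods' t-test, and 0 of 2 had an unadjusted p under 0.05. With saline at 4 h Prkar2a was high in replicate 2, at 1181.5 against 448.0 to 614.2. Of 7 genes that control the turnover of Krüppel-like factor proteins, 2 were kept. Fbxw7, which marks Klf2 for degradation, was lower at 4 h by a log2 of -0.23 (SE 0.07, adjusted p = 0.0335), beside 7.07% of kept probes called lower at that time. That call was lost without any of 5 arrays of 4 h, saline replicates 1 and 4 or formoterol replicates 1, 3 and 4, with an adjusted p of up to 0.115. The deubiquitinase Usp10 was not called.

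Among targets that Klf2 or Klf4 is known to raise, 2 of 12 were kept, and Cdkn1a rose at both times, beside 1.87% of kept probes called higher at 1 h and 8.81% at 4 h. Its saline values were 286.8, 337.4, 278.3 and 348.9 at 1 h and its formoterol values 810.9, 715.8, 949.0 and 544.9. At 4 h it gave 242.4, 233.0, 277.3 and 290.4 with saline and 892.7, 721.7, 961.5 and 745.2 with formoterol. The groups were separate at both times. Its detection score was 1 in all 8 formoterol-treated mice and in 1 of 8 saline-treated mice, at 1 h, so it was kept through the formoterol groups, in which it was high. Its calls thus say nothing of the list of targets. At 4 h the rise was at least 2.77-fold, by the bound used for Klf4 probe B. With the floor the log2 difference was 1.25 (SE 0.14, limma adjusted p = 1.21e-05) at 1 h and 1.61 (SE 0.14, adjusted p = 1.40e-07) at 4 h. By the methods' t-test on floored log2 values the 1 h difference had an adjusted p of 0.184. The study itself, with its own values, reported this difference as significant. The other kept target, the arginine-synthesis enzyme Ass1, was not called, with 0.04 (SE 0.10) and 0.18 (SE 0.10). Of 9 targets that the factors lower, only the adhesion molecule Vcam1 was kept, at -0.09 (SE 0.11) and 0.06 (SE 0.11), and of 10 genes of muscle cell fusion only Jam2, at -0.03 (SE 0.12) and -0.18 (SE 0.12). None of these was called.

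Of 25 immediate-early genes, 3 were kept. These 3 had a score of 1 in all 8 formoterol-treated mice, whereas Junb and Nr4a2 had it in 0 and Fosl2 in 1 of the 8 saline-treated mice. They were thus kept only through the groups in which they were high, and their number says nothing of the list. Formoterol was at least 4.16-fold higher for Junb, 2.72-fold for Fosl2 and 2.14-fold for Nr4a2 at 1 h, and at least 1.39-fold for Junb and 1.49-fold for Nr4a2 at 4 h. With the floor, which understates differences from such values, the log2 differences at 1 h were 2.35 (SE 0.15) for Junb, 1.59 (SE 0.09) for Fosl2, both subunits of the AP-1 factor, and 1.46 (SE 0.12) for the orphan nuclear receptor Nr4a2. At 4 h they were 0.65 (SE 0.15), 0.75 (SE 0.09) and 0.75 (SE 0.12), and the declines of the response had adjusted p of 1.47e-04, 9.19e-04 and 0.0243 (limma). The dimmer Nr4a2 probe declined by -0.41 (adjusted p = 0.251), which was not called, and without the 3 arrays of extreme median signal Junb at 4 h had an adjusted p of 0.115. The methods' t-test on floored log2 values called 1 of the 3 at 1 h, Fosl2, and 2 at 4 h, Fosl2 and Junb. The study itself, with its own values, reported all 3 as significant at 1 h, and Fosl2 and Nr4a2 at 4 h. A decline of the response was called for 1.21% of all kept probes. Klf4 probe A with 1.99 and 1.15 and Klf2 with 1.28 and 0.11 are given beside these as values only, because they were chosen on the same differences.

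The probes whose pattern was most like that of each Krüppel-like factor were found by the root mean square (RMS) difference in log2 over the 16 arrays, each probe being centred on its own mean. For Klf2 the nearest of 2590 named kept probes of other genes was Errfi1, a feedback inhibitor of the EGF receptor, at 0.231, and it was also the nearest of all kept probes. Errfi1 ranged from 654.2 to 801.3 with saline at 1 h and from 1641.2 to 2124.7 with formoterol, with a log2 difference of 1.35 (SE 0.13) at 1 h and 0.15 (SE 0.13) at 4 h. The next 4 named probes were Klf4 probe B (0.301), a probe of Nr4a2 (0.323), Fosl2 (0.332) and the other Nr4a2 probe (0.342).

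For Klf4 probe A the nearest named probe was Litaf, a membrane protein of the endosome, at 0.295. Litaf differed by a log2 of 1.46 (SE 0.15) at 1 h and 0.90 (SE 0.15) at 4 h, so that like Klf4 it was still raised at 4 h. Nr4a2 (0.305), Fosl2 (0.310), Junb (0.374) and a probe of Cdkn1a (0.418) followed. Klf2 and Klf4 probe A were 0.521 apart, which made Klf2 the 19th nearest of the 7595 other probes to Klf4 probe A. Seen from Klf2, whose differences are smaller, Klf4 probe A came 3691st at the same distance.

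For Klf4 probe B the nearest was a probe of Nr4a2 at 0.086, and 8 of the 16 values of that Nr4a2 probe lay at the same floor as 7 of probe B. Kcne4, a potassium channel subunit (0.194), Gfpt2, an enzyme of hexosamine synthesis (0.215), Mat2a, which makes S-adenosylmethionine (0.231), and Alpk3, a kinase of striated muscle (0.240), came next. Likeness of this kind is led by the few groups in which a probe is high, and it is given as a description.

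**Figure D5:**
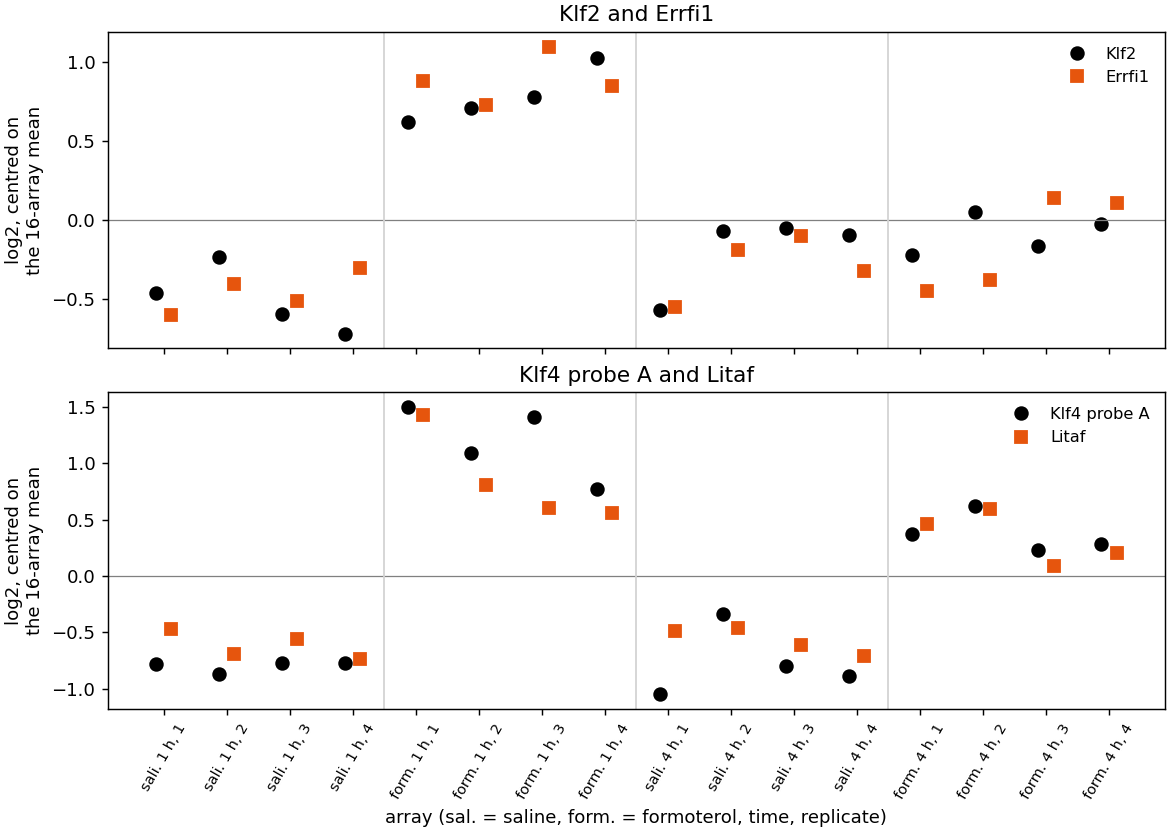
Log2 intensity centred on the mean of 16 arrays for Klf2 with Errfi1 (upper panel) and Klf4 probe A with Litaf (lower panel), by array in the order of the groups, which vertical lines separate. Klf2 and Errfi1 stand high in the 4 mice of formoterol at 1 h only (RMS difference 0.231), while Klf4 probe A and Litaf are also raised in the 4 mice of formoterol at 4 h (RMS difference 0.295).

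Klf2 and Klf4 are known from vessels and blood cells, so markers of cell types were read beside them. Of 15 endothelial markers 5 were kept, and their summed scaled intensity ran from 5795.8 to 8670.3 with saline and from 4844.9 to 6232.5 with formoterol at 1 h, and from 7168.0 to 9923.6 and from 5579.2 to 7036.7 at 4 h. Most of this sum was Cav1, whose median with saline at 4 h was 6070.4 beside a median sum of 8959.1, so the sum mainly follows that gene. At 1 h 0 of 5 were called by limma or by the methods' t-test, and 1, Cav1, had an unadjusted p under 0.05. Its 1 h difference was -0.50 (SE 0.15, limma adjusted p = 0.104), without overlap of the groups. This difference was called with slide as a fixed block (limma adjusted p = 0.0271) and with the replicate block (adjusted p = 0.0303). With slide as a random block it was not called (adjusted p = 0.0812). At 4 h 2 of 5 were lower and 1 higher, beside 7.07% and 8.81% of all kept probes. Cav1, which coats caveolae and is also found outside endothelium, was lower by a log2 of -0.75 (SE 0.15, limma adjusted p = 0.00219), and the endothelial sialomucin Emcn by -0.71 (SE 0.13, adjusted p = 8.84e-04). Without the 3 arrays of extreme median signal Cav1 had an adjusted p of 0.111, and of the 5 markers the methods' t-test called Emcn only. Eng, a co-receptor for TGF-beta, was higher by 0.42 (SE 0.12, adjusted p = 0.0223), a call lost without formoterol replicate 3 or saline replicate 2 or 3 of 4 h (adjusted p up to 0.0784). The platelet-endothelial adhesion molecule Pecam1 differed by -0.16 (SE 0.10) at 1 h and 0.14 (SE 0.10) at 4 h and was not called. Egfl7 differed by -0.13 (SE 0.13) and 0.04 (SE 0.13) and was not called either. The median of the 5 log2 differences was -0.13 at 1 h and 0.04 at 4 h. The part of the vessels in the Klf2 and Klf4 values was not tested.

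Some fibroblast markers were lower with formoterol. Of 5 kept, with a median log2 difference of -0.61 at 1 h and -0.65 at 4 h against 0.00 and 0.02 over all kept probes, Col1a1 and Dcn were called lower at 1 h, with log2 differences of -0.87 (SE 0.17, limma adjusted p = 0.00758) and -0.26 (SE 0.06, adjusted p = 0.0305), where 0.908% of all kept probes were called lower. Col1a1 (-0.65, SE 0.17, adjusted p = 0.0163), Col1a2 (-1.23, SE 0.26, adjusted p = 0.00336) and Col3a1 (-1.17, SE 0.33, adjusted p = 0.0209) were called lower at 4 h, where 7.07% of all kept probes were. Fbln2 differed by only -0.12 (SE 0.08) at both times and Dcn by 0.06 (SE 0.06) at 4 h, without a call. At 4 h these markers thus did not follow the collagens. The methods' t-test called 0 of 5 at either time. Single arrays ended 3 of these calls. Dcn was lost without saline replicate 2, 3 or 4 or formoterol replicate 1 or 2 of 1 h (adjusted p up to 0.121), Col1a1 at 4 h without formoterol replicate 3 (0.0639) or without the 3 arrays of extreme median signal (0.22), and Col3a1 without formoterol replicate 2, 3 or 4 (up to 0.0724). Without saline replicate 2 of 4 h, which stood at 7482.9 against 1851.8 to 2938.8, the Col3a1 difference was -0.74 and was still called. That mouse was also high for Col1a2, at 6759.7 against 2094.2 to 2809.2, and without it the Col1a2 difference was -0.85 and was still called. The summed intensity of the 5 fibroblast markers ran from 21361.3 to 26014.3 with saline and from 14895.8 to 18867.0 with formoterol at 1 h, and from 22193.9 to 32480.3 and from 17723.6 to 19971.1 at 4 h. Their part in the Klf values was not tested.

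Globins, a sign of blood in the muscle, differed between treatments at 4 h, when the saline group was low. The sum of 3 kept globin probes ran from 14230.6 to 38942.5 with saline and from 22594.5 to 40500.8 with formoterol at 1 h, and from 6085.0 to 19956.6 and from 25066.1 to 42900.5 at 4 h. Hba-a1 was higher with formoterol than with saline at 4 h by a log2 of 1.82 (SE 0.32, limma adjusted p = 6.47e-04). From 1 h to 4 h it changed by -1.46 (SE 0.32, limma adjusted p = 0.0749) with saline and by 0.19 (SE 0.32) with formoterol. For formoterol minus saline at 4 h Hbb-b1 gave 1.13 (SE 0.39, limma adjusted p = 0.0573), with overlap of the groups, and was not called. Hbb-b2, whose sequence is close to that of Hbb-b1, gave 0.61 (SE 0.20, adjusted p = 0.0406), lost without any of 7 arrays, namely formoterol replicate 2 of 1 h and, of 4 h, saline replicates 1, 3 and 4 or formoterol replicates 2, 3 and 4 (adjusted p up to 0.117). The methods' t-test called 0 of 3 at 4 h, with an adjusted p of 0.095 for Hba-a1. At 1 h, when Klf2 and Klf4 differed most, the globin sums of the groups overlapped and 0 of 3 globins were called by limma or the methods' t-test, or had an unadjusted p under 0.05. The part of blood in the Klf values was not tested.

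For other cell types the kept markers were few. Of 10 macrophage markers 3 were kept, with summed intensities of 1101.6 to 1603.6 with saline and 1175.6 to 1325.2 with formoterol at 1 h. At 4 h the sums were 991.0 to 1331.1 and 1000.8 to 1214.4. At either time 0 were called by either test, with an unadjusted p under 0.05 for 0 at 1 h and 1 at 4 h. C1qb was detected in 6 of 8 saline-treated and 1 of 8 formoterol-treated mice, and Csf1r in 4 and 0, so both lay near the detection limit. The smooth muscle actin Acta2, 1 of 8 markers of its list, differed by 0.09 (SE 0.10) at 1 h and 0.01 (SE 0.10) at 4 h. None of 9 lymphocyte markers was kept, and of 6 satellite cell markers only Vcam1 was. Of 13 muscle fibre markers only the fast myosin Myh1 could be named and was kept, at -0.36 (SE 0.11, limma adjusted p = 0.117) at 1 h and -0.27 (SE 0.11, adjusted p = 0.115) at 4 h. At 4 h its groups did not overlap, and the methods' t-test called it lower. The part of these cells in the Klf values was not tested.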

How the data were processed

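Total RNA from 16 muscles was amplified to biotin-labelled cRNA, which was hybridized to Sentrix Mouse-6 BeadChips. The deposited bead intensity is an average per probe that the authors read in BeadStudio (version 1.5.1.3) and did not normalize. The deposited detection score, from 0 to 1, comes from the same program. Another deposited value is the ratio of intensity to array median that the authors made in GeneSpring GX; recomputed from the intensities, it differed by a relative 0.0016 at most on kept probes.

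From the intensities, the 7596 of 46120 probes with a score of 1 on at least 4 of 16 arrays were kept, as in the study. Each array was scaled to a median of 523.5, the floor was set at 257.5 (percentile 1), and values were taken to log2. Means of the 4 groups were fitted over all 16 arrays with limma 3.58.1 in R 4.3.3 (lmFit, eBayes), with Benjamini-Hochberg adjustment over the 7596 probes and calls under 0.05. The methods' t-test was Welch's test on the same floored log2 values, with the same adjustment. The array medians over kept probes were 392.7 to 746.1, or 2.33 to 3.74 times those of probes with a score under 0.5; the number of arrays limits the precision. The fit and the correlation test were tested on simulated data.

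Gene names were read from gene numbers and accessions in probe identifiers, which named 2591 kept probes (34.1%). A gene with several probes was counted by the brightest. The members and lists were chosen with earlier results of these data known. The genes named are all probes of Klf2 and Klf4, all kept family genes, the 5 nearest named probes of each kept Klf probe, and, of every other list, up to 6 called members; list members named without a call were picked once their values were known. Alternatives covered normalization, filter, floor, test, slide, replicate block and each array left out; no floor and the omission of 3 arrays of extreme median signal were chosen after seeing the data. Whether mice were littermates is not given in the sources used here. Correlations used 100000 permutations within groups in Python 3.11.15 with numpy 2.4.6.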

Additional observations from a re-analysis of the deposited data

Results flagged for a closer look

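Of 84 groups of 4 mice examined for the Klf probes and the named list genes, 6 held a mouse set apart from the other 3, and chance flags about 1 in 20. Klf2 was low in saline replicate 1 at 4 h, at 459.5 against 643.4 to 658.2. Klf4 probe A was slightly low in saline replicate 2 at 1 h, at 328.9 against 348.2 to 351.4, and Klf7 was low in the same mouse, at 476.2 against 499.4 to 503.0. In formoterol replicate 1 at 4 h Klf6 was low (1220.0 against 1491.0 to 1514.9) and Cav1 high (4408.4 against 3240.5 to 3364.9). Dcn was low in saline replicate 4 at 4 h, at 9258.0 against 10393.5 to 10519.5.

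The response differed between 1 h and 4 h for 4 of the named genes by the interaction term of the limma fit. The response at 4 h minus that at 1 h was -1.69 in log2 for Junb (adjusted p = 1.47e-04), -0.84 for Fosl2 (adjusted p = 9.19e-04), -0.71 for Nr4a2 (adjusted p = 0.0243) and -0.70 for Emcn (adjusted p = 0.0425). Junb and Nr4a2 were detected in 0 and Fosl2 in 1 of the 8 saline-treated mice, so these declines are set against values near the floor. Junb, Nr4a2 and Fosl2 were kept only through the formoterol groups, in which they were high.

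Klf4 probe C, which the detection filter left out, gave a mean of 247.1 with formoterol and 170.0 with saline at 1 h, and of 225.5 and 154.6 at 4 h.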

How the results depend on the processing

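The formoterol differences of Klf4 kept their direction under every alternative run, and that of Klf2 at 1 h did too. With normexp and quantile normalization the log2 differences at 1 h were 1.5 for Klf2, 2.40 for Klf4 probe A and 1.42 for probe B, and at 4 h 1.48 for probe A and 1.04 for probe B. Klf2 at 1 h was 1.01 on slide 2 and 1.56 on slide 3. Array weights moved Klf2 at 4 h to 0.35, its response at 4 h minus that at 1 h to -0.94 and saline at 4 h minus 1 h to 0.08. Slide 2 alone gave -0.95 for that difference of responses in Klf2, and for probe B -0.63 both for it and for formoterol at 4 h minus 1 h. Probe B, with saline values at the floor, moved most with the treatment of low values. It was 0.99 at 1 h, 0.74 at 4 h, -0.25 for the difference of responses and -0.16 for saline at 4 h minus 1 h with the authors' ratios and without a floor. A floor at percentile 5 gave 0.67 and 0.26, an offset of 50 gave 0.62 at 4 h and -0.24 for the difference, and quantile normalization gave 0.66 at 4 h. Without the 3 arrays of extreme median signal probe B was 0.32 at 4 h, -0.54 for the difference and -0.56 for formoterol at 4 h minus 1 h.

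With 1 array left out at a time, Klf2 ran from 1.20 to 1.37 at 1 h and from -0.02 to 0.16 at 4 h, and Klf4 probe A from 1.89 to 2.13 and from 1.05 to 1.29. The family count of higher genes ran from 0 to 1 at 1 h and from 0 to 2 at 4 h. It was 1 at 1 h with array weights, with each time alone and without the 3 arrays, and 0 at 4 h with the methods' t-test, no filter, either quantile normalization, the 3 arrays left out and an adjusted p under 0.01; the cause was not tested. Of the 30 other kept list genes, 4 rose and 2 fell at 1 h (1.87% and 0.908% of all kept probes), while 7 rose and 6 fell at 4 h (8.81% and 7.07%). The 4 that rose at 1 h were Cdkn1a, Fosl2, Junb and Nr4a2, which were also among the 7 at 4 h. They were kept only through the formoterol groups, in which they were high, so the counts of higher genes say nothing of the lists. With the methods' t-test the 4 counts were 1, 0, 3 and 2, and without the filter 4, 0, 4 and 1. Array weights gave 4 and 10 lower at 1 h and 4 h, an adjusted p under 0.01 gave 1 and 3, both quantile settings gave 1 lower at 1 h, and the 3 arrays left out gave 4 higher and 2 lower at 4 h. With 1 array left out, lower genes numbered 1 to 3 at 1 h and 3 to 6 at 4 h, and higher ones 5 to 8 at 4 h. The correlation of the Klf4 probes passed at r = 0.66 with quantile normalization, r = 0.61 with normexp and, at r = 0.67, without formoterol replicate 3 of 4 h, and with 1 array left out at a time it ran from 0.31 to 0.73.

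Mice that share a replicate number did not deviate together (r from -0.06 to 0.30 at 1 h and from -0.25 to 0.27 at 4 h), so the numbers were not taken as a pairing. With the replicate block Klf2 stayed at 1.28 and 0.11 and Klf4 probe A at 1.99 and 1.15, and 0 family genes were called at 4 h (Klf6 adjusted p = 0.0673). Intensity near background limits Klf4 probes B and C and the 9 family genes without a kept probe.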
